A study of Mus musculus with 24 samples.

Results

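Branched-chain amino acid catabolism was followed through 10 genes of its enzymes, *Bcat1*, *Bcat2*, *Bckdha*, *Bckdhb*, *Dbt*, *Ivd*, *Mccc1*, *Hibch*, *Hibadh* and *Pcca*, out of 26995 gene symbols counted. The genes were chosen by name for their place in the pathway. Each symbol can have several RefSeq 3′UTR entries, and the entry with the highest mean read count over all libraries stood for the gene. The cells were 3T3-L1, a mouse embryonic fibroblast line used as a model of pre-adipocytes, which turns into adipocytes in culture after hormonal induction. They were grown in DMSO, the solvent control, or in 0.5 µM ML-792, an inhibitor of the SAE1/2 enzyme that starts the attachment of SUMO to proteins. Both arms got the same differentiation medium with dexamethasone, 3-isobutyl-1-methylxanthine and insulin, which was replaced from day 3 by a medium with insulin. Libraries were made on day −2 (pre-adipocytes, before induction) and on days 1, 3 and 7 after induction, with 3 biological replicates, A, B and C, in each of the 8 groups, so 24 libraries in all.

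Leucine, isoleucine and valine are broken down mostly in mitochondria, in a shared opening and then in separate branches. A branched-chain aminotransferase, cytosolic BCAT1 or mitochondrial BCAT2, first moves the amino group to 2-oxoglutarate. The branched-chain 2-oxoacid dehydrogenase complex, built from BCKDHA, BCKDHB, DBT and DLD, then decarboxylates the oxoacids to acyl-CoA in a step that cannot be reversed. Further enzymes take leucine to acetyl-CoA and acetoacetate, valine through free 3-hydroxyisobutyrate to propionyl-CoA, and isoleucine to acetyl-CoA and propionyl-CoA. Fat cells are known to take up these amino acids and to use their carbon for lipid synthesis as they mature.

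QuantSeq sequences messenger RNA from its poly(A) end. The same libraries also gave labelled reads, those with at least 1 T to C conversion. Such conversions mark 4-thiouridine, a uridine analogue taken up by new RNA during 45 min before harvest. The libraries held 13554718 to 27013352 total reads and 115709 to 820046 labelled reads, summed over all entries. All 10 genes passed the filter on low counts in total reads and 5 of them in labelled reads. The levels below are counts scaled to the mean effective library size of the 24 libraries, in the order A, B, C. On mm10, 8 of the 10 entries lie wholly in an annotated 3′UTR of their own gene, and the exceptions, *Bckdha* and *Mccc1*, are described with their values. The levels follow entry length and priming, so levels were compared between libraries of a gene and not between genes. The summed level of 7 adipocyte markers ran from 1935 to 2836 on day −2 and from 325887 to 364336 on day 7 in DMSO, while 5 markers of pre-adipocytes or fibroblasts went from 186366 to 234523 down to 12435.5 to 18895. The sums are led by the most abundant genes, *Fabp4* and *Adipoq* among them, and *Lep* had 3 reads or fewer in every DMSO library of day −2. Markers of other cell types a culture could hold were low: 4 macrophage markers summed to 24.7 to 153, 3 endothelial markers to 0 to 20.6, and 3 skeletal muscle markers to 0 to 5.31 over the 24 libraries.

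Replicate B stood apart in several of these genes. *Bckdhb* and *Dbt* were highest in B in 8 of 8 groups, at 1.54 to 2.24 and 1.24 to 1.99 times the mean of A and C. *Bcat1* was highest in B in 7 of 8 groups. *Hibadh* was lowest in B in 8 of 8 groups, at 0.567 to 0.913 times the mean of A and C, and *Bcat2* in 7 of 8, with DMSO on day 7 as the exception. The labels do not say what the letters share, so the tests of the chosen pathway genes were also computed without each letter. No values with a letter left out are given for other genes, correlations, read ratios, marker sums or labelled shares. The plot of levels by library and that of replicate B over the others show this order of the letters.

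**Figure D1:**
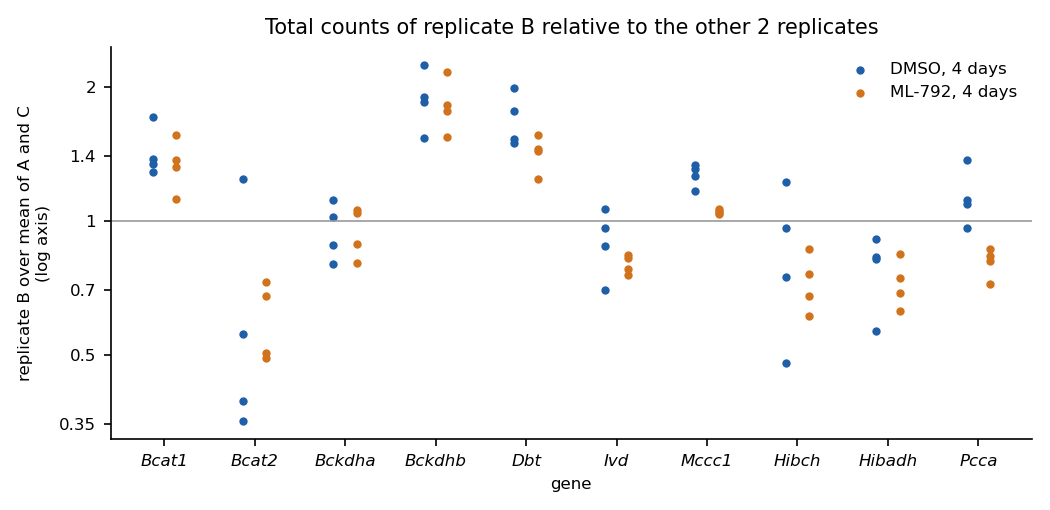
Total-read level in replicate B divided by the mean of A and C of the same group (vertical, log axis) for each of the 10 genes (horizontal), with 1 point for each of the 8 groups, coloured by treatment. All points of *Bckdhb* and *Dbt* lie above 1 and all points of *Hibadh* below 1.

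**Figure D2:**
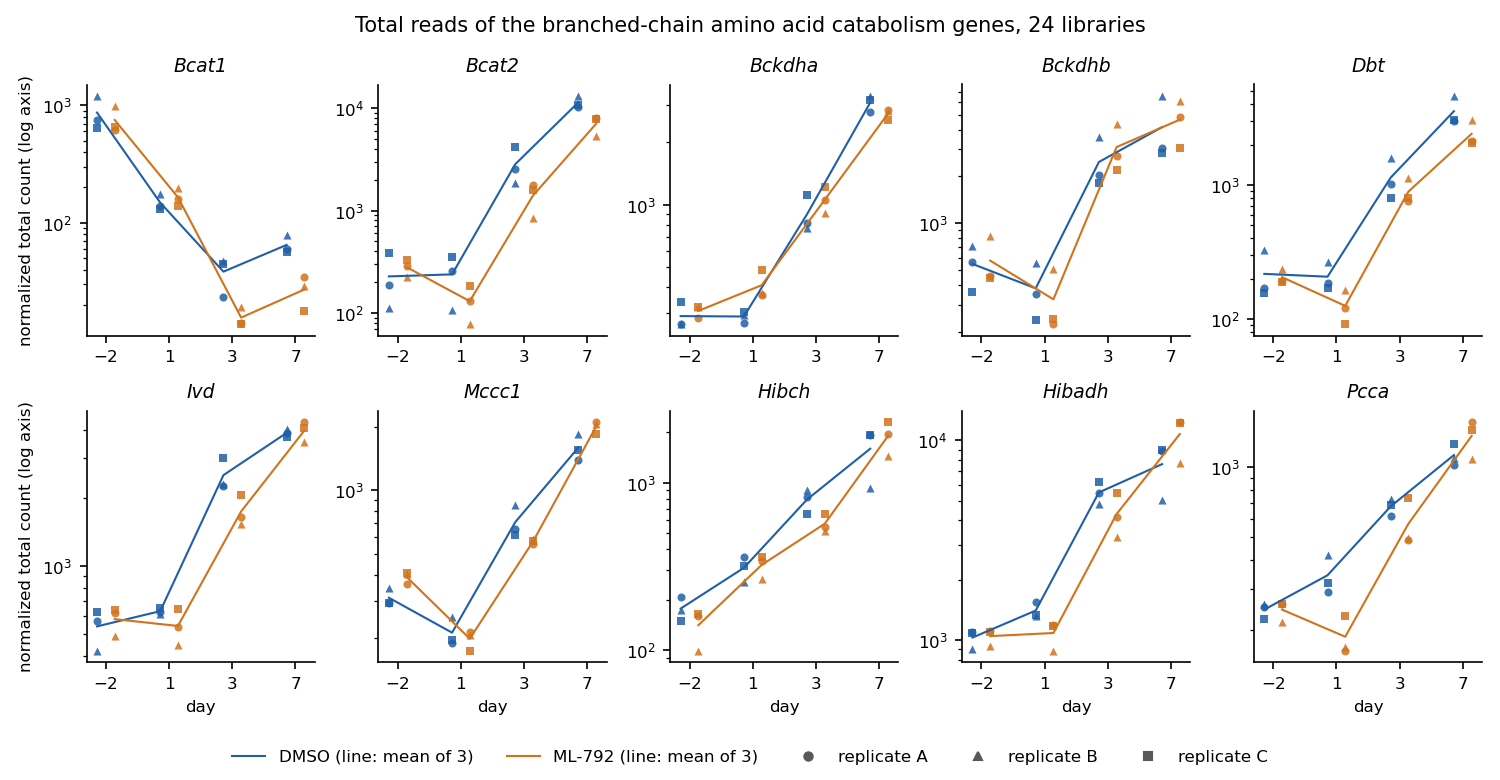
Total-read levels of the 10 genes in each of the 24 libraries, as normalized counts on a log axis against day, with 1 panel per gene, DMSO and ML-792 in separate colours, the replicate letters as separate symbols and lines through the means of 3. In 9 panels the points of days 3 and 7 lie above those of day −2 in both arms, and in the *Bcat1* panel they lie below.

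In DMSO, 9 of the 10 genes rose and 1, *Bcat1*, fell between day −2 and day 7. Across all 13331 genes tested 19.3% were called higher and 19.1% lower on day 7 (38.4% in either direction), and the median log2 fold change was 2.90 over the 10 genes against 0.00 over all genes. On day 3 the count was again 9 higher and 1 lower, with 17.9% of all genes higher and 18.5% lower. On day 1 only *Bcat1* was called, lower, with 7.61% of all genes higher and 9.36% lower, and 5 of the 10 genes had an unadjusted p under 0.05. The step from day 1 to day 3 held the same 9 rises and 1 fall (11.6% of all genes in each direction). From day 3 to day 7 4 genes were called higher, *Bcat2*, *Bckdha*, *Dbt* and *Mccc1*, where 6.03% of all genes were called higher and 4.76% lower. That step depended on single letters, with *Bckdha* alone called without A, 6 genes without B, and *Bcat2* and *Bckdha* without C. The calls of day 7 against day −2 held with any letter left out, while on day 3 *Mccc1* lost its call without A, and the step from day 1 to day 3 lost *Bcat1* without A and *Hibch* and *Pcca* without A or without C. Days 1, 3 and 7 were set against the same 3 libraries of day −2. In these bulk samples, fewer cells that express a gene and less of its RNA per cell cannot be told apart. The adipocyte and fibroblast markers moved with the same days, and their part in the changes was not tested.

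**Figure D3:**
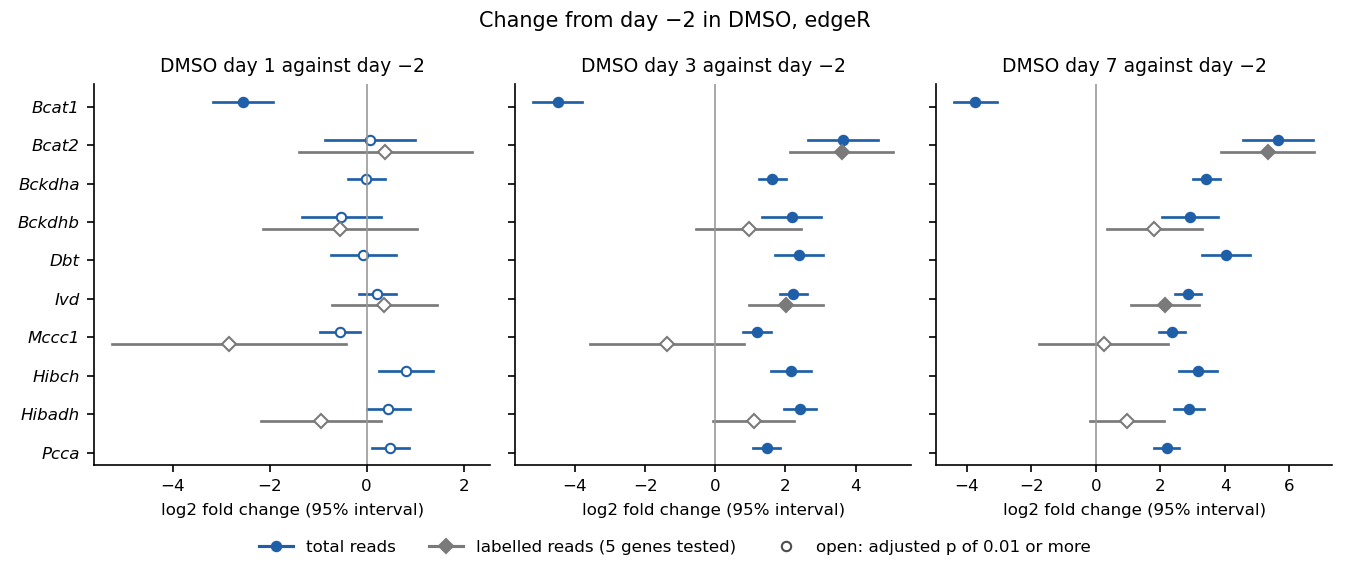
Fitted log2 fold change against day −2 in DMSO (horizontal axis, bar: 95% interval) for each of the 10 genes (vertical axis), with 1 panel for each of days 1, 3 and 7, circles for total reads and diamonds for the 5 genes tested in labelled reads, filled where called. In total reads 9 genes lie to the right of 0 on days 3 and 7, from 1.19 to 5.64, and *Bcat1* lies to the left.

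The 2 aminotransferases moved in opposite directions. *Bcat1* (XM_011241566.2, mm10 chr6:144993835-145000262, minus strand) encodes the cytosolic enzyme. Its levels were 755, 1202 and 644 on day −2, 139, 174 and 132 on day 1, 23.2, 47.0 and 45.0 on day 3 and 59.6, 78.1 and 56.9 on day 7. The 3 libraries of day −2 lay above all later DMSO libraries, and the lowest values were those of day 3. Against day −2 it changed on the log2 scale by -2.55 ± 0.29 (SE, adjusted p = 1.2e-05) on day 1, -4.50 ± 0.33 (SE, adjusted p = 3.1e-08) on day 3 and -3.74 ± 0.31 (SE, adjusted p = 1e-07) on day 7, a 13.3-fold fall. The difference of day 7 from day 3 was not called (0.76 ± 0.32, adjusted p = 0.13).

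*Bcat2* (XM_017321955.1, mm10 chr7:45589345-45589710, plus strand) encodes the mitochondrial aminotransferase. Its levels were 189.8, 113 and 381 on day −2, 257, 108 and 350.2 on day 1, 2514, 1855 and 4123 on day 3 and 10257, 13109 and 10775 on day 7. Days −2 and 1 overlapped, with a log2 fold change of 0.07 ± 0.43 (SE, adjusted p = 0.94), and every library of day 3 was above them and below every library of day 7. Against day −2 the log2 fold change was 3.63 ± 0.47 (SE, adjusted p = 1.5e-05) on day 3 and 5.64 ± 0.51 (SE, adjusted p = 3.5e-07) on day 7, a 49.9-fold rise and the highest of the 10. Both steps after day 1 were called, day 1 to day 3 with 3.57 ± 0.47 (SE, adjusted p = 3.3e-05) and day 3 to day 7 with 2.01 ± 0.43 (SE, adjusted p = 0.0048). Within a library, the reads of *Bcat2* were 0.0938 to 0.592 times those of *Bcat1* on day −2, 0.619 to 2.65 times on day 1, 39.4 to 108.6 times on day 3 and 167.9 to 189.5 times on day 7. Since the 2 entries differ in length, 366 and 6428 bases, the change of this ratio over days can be read but not its size at one day. Relative to its size, this ratio varied less between the 3 libraries of day 7 than between those of any earlier day.

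The 3 subunits specific to the dehydrogenase complex all rose. *Bckdha* (NM_007533.5, mm10 chr7:25629852-25630262, minus strand) encodes the alpha subunit of its decarboxylase component. Its levels were 265, 267 and 340.3 on day −2, 269, 294 and 306 on day 1, 812, 773 and 1115 on day 3 and 2794, 3334 and 3177 on day 7. The first pair of days overlapped and days 3 and 7 were each above all libraries before them. The log2 fold change against day −2 was 1.63 ± 0.18 (SE, adjusted p = 3.6e-06) on day 3 and 3.41 ± 0.20 (SE, adjusted p = 2.1e-09) on day 7, and the step from day 3 to day 7 (1.79 ± 0.18, adjusted p = 8.8e-06) was about as large as that from day 1 to day 3 (1.64 ± 0.18, adjusted p = 6.7e-06). Of the 411 bases of the *Bckdha* entry, 317 lie in an annotated 3′UTR of the gene. A second entry of 317 bases held a mean of 1012 reads per library, against 1013, and also changed by 3.41 by day 7. The chosen entry overlaps an exon of *B3gnt8* on the other strand. Whether strand was used in counting is not given in the sources used here, so reads of the 2 genes in the overlap cannot be told apart.

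*Bckdhb* (XM_006510788.1, mm10 chr9:84123969-84124240, plus strand) encodes the beta subunit of the same component. Its levels were 566, 715 and 363 on day −2, 349, 558 and 238 on day 1, 2036, 3577 and 1821 on day 3 and 3035, 6586 and 2833 on day 7. Replicate B was the highest library on each day, and the spread on day 7 (4151 ± 2111, mean ± SD, n = 3) was wide. Against day −2 the log2 fold change came to 2.18 ± 0.39 (SE, adjusted p = 0.00037) on day 3 and 2.92 ± 0.40 (SE, adjusted p = 2.9e-05) on day 7. Days 3 and 7 overlapped (0.74 ± 0.38, adjusted p = 0.21).

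*Dbt* (XM_006500976.2, mm10 chr3:116548201-116549981, plus strand) encodes the transacylase core of the complex. Its levels were 171, 324 and 155 on day −2, 185, 265 and 169 on day 1, 1011, 1598 and 795 on day 3 and 3006, 4614 and 3027 on day 7. As in *Bckdhb*, B was highest each day, and days 3 and 7 did not overlap here. Relative to day −2, its log2 fold change was 2.39 ± 0.32 (SE, adjusted p = 2.2e-05) on day 3 and 4.03 ± 0.34 (SE, adjusted p = 1.4e-07) on day 7, a 16.4-fold rise, with a called step from day 3 to day 7 (1.64 ± 0.31, adjusted p = 0.0018).

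In the leucine branch, both genes rose. *Ivd* (XM_006499925.1, mm10 chr2:118880587-118882907, plus strand) encodes isovaleryl-CoA dehydrogenase, which oxidizes the acyl-CoA made from leucine. Its levels were 574, 421 and 627 on day −2, 625, 616 and 652 on day 1, 2254, 2311 and 3012 on day 3 and 3889.8, 4052 and 3714 on day 7. Most of the rise lay between days 1 and 3 (2.00 ± 0.18, adjusted p = 7.7e-07), and although day 7 was above day 3 in all libraries, that step was not called (0.62 ± 0.18, adjusted p = 0.025). Against day −2 the log2 fold change was 2.22 ± 0.18 (SE, adjusted p = 1.3e-07) on day 3 and 2.85 ± 0.19 (SE, adjusted p = 9e-09) on day 7.

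*Mccc1* (XR_001783757.1, mm10 chr3:35959286-35960129, minus strand) encodes the biotin-carrying subunit of methylcrotonyl-CoA carboxylase. Its levels were 294, 344 and 294 on day −2, 190.0, 253 and 195 on day 1, 659, 849 and 614 on day 3 and 1389, 1854 and 1545 on day 7. All 3 libraries of day 1 were below those of day −2, a difference that was not called (-0.55 ± 0.19, adjusted p = 0.051). The log2 fold change against day −2 was 1.19 ± 0.19 (SE, adjusted p = 0.00012) on day 3 and 2.36 ± 0.20 (SE, adjusted p = 1e-07) on day 7, with called steps from day 1 to day 3 (1.73 ± 0.19, adjusted p = 6.2e-06) and from day 3 to day 7 (1.17 ± 0.19, adjusted p = 0.00048). *Mccc1* has 23 entries in the table, and part of the chosen entry, 114 bases, lies in a stretch annotated as coding. The gene *Gm15952*, on the other strand, spans it without an exon in it.

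In the valine branch, *Hibch* (NM_146108.2, mm10 chr1:52920379-52920986, plus strand) encodes 3-hydroxyisobutyryl-CoA hydrolase, which frees 3-hydroxyisobutyrate. Its levels were 208, 173 and 149.7 on day −2, 360.4, 254 and 316 on day 1, 826, 903 and 653 on day 3 and 1932, 925 and 1932 on day 7. It was already higher in all libraries of day 1, a difference that was not called (0.81 ± 0.26, adjusted p = 0.037), and on day 7 replicate B was below the others and near the level of day 3. On the log2 scale it stood 2.17 ± 0.27 (SE, adjusted p = 9.5e-06) above day −2 on day 3 and 3.17 ± 0.28 (SE, adjusted p = 1.9e-07) above it on day 7.

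*Hibadh* (NM_145567.1, mm10 chr6:52546230-52546903, minus strand) encodes 3-hydroxyisobutyrate dehydrogenase, which oxidizes that product. Its levels were 1098, 907 and 1087 on day −2, 1554, 1323 and 1344 on day 1, 5454, 4805 and 6220.1 on day 3 and 8877, 5042 and 8919 on day 7. Days 3 and 7 overlapped through replicate B, and the step between them was not called (0.47 ± 0.21, adjusted p = 0.15). The log2 fold change against day −2 was 2.41 ± 0.22 (SE, adjusted p = 3.5e-07) on day 3 and 2.88 ± 0.22 (SE, adjusted p = 4.9e-08) on day 7.

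The valine, isoleucine and odd-chain routes meet at propionyl-CoA, and *Pcca* (NM_144844.2, mm10 chr14:122889556-122889944, plus strand) encodes the biotin-carrying subunit of propionyl-CoA carboxylase. Its levels were 252, 259.9 and 225 on day −2, 293, 419.9 and 319.9 on day 1, 619, 728 and 689 on day 3 and 1019, 1096 and 1257 on day 7. The libraries of each day lay above those of the day before. Compared with day −2, the log2 fold change was 1.47 ± 0.18 (SE, adjusted p = 9.2e-06) on day 3 and 2.19 ± 0.18 (SE, adjusted p = 1.2e-07) on day 7. This 4.57-fold rise was the lowest of the 9. The gene *Ggact*, on the other strand, spans the entry without an exon in it.

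Over the 24 libraries the 9 genes other than *Bcat1* had pairwise Pearson correlations of log2 levels from 0.768 to 0.982 (36 pairs, median 0.925), and *Bcat1* had -0.828 to -0.568 with them. These libraries share their days, so the values describe a common time course. Among genes outside the pathway, the levels of *Bcat1* were most like those of *Fnip2* (0.976), *Adamtsl5* (0.974) and *Arhgap21* (0.970). Those of *Bcat2* were most like *S100a1* (0.988), *Itga7* and *Tlcd1* (0.979 each). For *Ivd* they were *Lpcat3* (0.996), *Immt* (0.989) and *Nr1h3* (0.987). All are descriptions over 24 libraries.

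In ML-792, the same 9 genes rose and *Bcat1* fell by day 3 and by day 7. Of all genes 21.3% were called higher on day 3 and 21% on day 7 and 19.9% and 19.4% lower (41.2% and 40.4% in either direction). Between day −2 and day 7 the log2 fold change was 4.64 for *Bcat2*, 3.76 for *Hibch*, 3.55 for *Dbt*, 3.36 for *Hibadh* and 3.15 for *Bckdha*. For *Bckdhb*, *Ivd*, *Pcca* and *Mccc1* it was 3.01, 2.77, 2.47 and 2.36. *Bcat1* fell by 4.78 on the log2 scale, from 616, 985 and 649 to 34.4, 29.2 and 17.7. On day 1, with 24.4% of all genes called, *Hibch* was higher (1.20 ± 0.22, adjusted p = 0.00098), and *Mccc1* (-0.97 ± 0.13, adjusted p = 8.3e-05) and *Bcat1* (-2.19 ± 0.24, adjusted p = 1.4e-05) were lower. *Hibch* lost its call without A and without C and *Mccc1* without C, and 6 genes were called without B. On day 3 the smallest rise was that of *Mccc1* (0.55 ± 0.13, adjusted p = 0.0029), which was no longer called without A or without C (adjusted p = 0.057 and 0.031), and *Bckdhb* lost its call without A.

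ML-792 against DMSO within a day asks whether inhibition of SUMO attachment changed these genes at a given stage. On day −2 none of the 10 genes was called, and none of all genes were either (0%). By edgeR 1 gene, *Mccc1*, had an unadjusted p under 0.05, and DESeq2 called 0. The intervals of the differences on day −2 were narrow for some genes, from -0.25 to 0.42 for *Bckdha* and from -0.39 to 0.39 for *Pcca* on the log2 scale (95%), and wide for others, from -0.59 to 1.19 for *Bcat2*. The sources used here do not say for these libraries when ML-792 was first added.

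On day 1, *Pcca* was lower and *Bckdha* higher in ML-792, where 4.05% of all genes were called lower and 3.82% higher (7.87% in either direction). The *Pcca* levels were 164, 171 and 229.8 in ML-792 and 293, 419.9 and 319.9 in DMSO, 2 groups that did not overlap. The log2 difference was -0.87 ± 0.19 (SE, adjusted p = 0.0062), and it missed the call without replicate A (-0.88, adjusted p = 0.17). *Bckdha* had 367, 377 and 484 in ML-792 and 269, 294 and 306 in DMSO, with a log2 difference of 0.50 ± 0.16 (SE, adjusted p = 0.091). It was not called without A or without C (adjusted p = 0.52 and 0.42), with looser filters on low counts, or with only the 6 libraries of the day in the fit (0.29). *Dbt* was also lower in all 3 ML-792 libraries, at 119.7, 165 and 91.0 against 185, 265 and 169, and was not called (-0.73 ± 0.31, adjusted p = 0.24), though it was without replicate B and with no filter on low counts (adjusted p = 0.0069 and 0.043). Over all genes, 21.6% had groups that did not overlap at this day, and 4 of the 10 genes did not.

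On day 3, *Bcat1* and *Ivd* were lower in ML-792, where 7.5% of all genes were called lower and 8.04% higher. *Bcat1* had 14.1, 19.0 and 13.7 in ML-792 and 23.2, 47.0 and 45.0 in DMSO, a log2 difference of -1.29 ± 0.35 (SE, adjusted p = 0.019). Each library of ML-792 was below each of DMSO, and 1 DMSO library, A, lay near them. These levels rest on 11 to 15 reads per library in ML-792 and 21 to 40 in DMSO. Without replicate C the difference was -1.08 and was not called (adjusted p = 0.25). *Ivd* had 1647, 1532 and 2055 against 2254, 2311 and 3012, a log2 difference of -0.53 ± 0.17 (SE, adjusted p = 0.051), which also was not called without A or without C (adjusted p = 0.35 and 0.23) or with no filter on low counts (0.14). With only the 6 libraries of the day in the fit, neither *Bcat1* nor *Ivd* was called (adjusted p = 0.18 and 0.17). *Bcat2*, *Mccc1* and *Hibch* did not overlap between the arms either, with all ML-792 libraries lower, and none of the 3 was called. For *Bcat2* the levels were 1781, 846 and 1571 against 2514, 1855 and 4123 and the log2 difference -1.02 ± 0.42 (SE, adjusted p = 0.16), with a 95% interval from -1.89 to -0.14. It was called without replicate B, with no filter on low counts and by DESeq2. Groups did not overlap in 25.3% of all genes, with ML-792 lower in 12.6%, and in 5 of the 10 genes, with ML-792 lower in each.

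On day 7, *Bcat1* alone was called, lower in ML-792, where 5.43% of all genes were called lower and 6.32% higher. It had 34.4, 29.2 and 17.7 in ML-792 and 59.6, 78.1 and 56.9 in DMSO, with no overlap and a log2 difference of -1.25 ± 0.32 (SE, adjusted p = 0.015). Without replicate C it was -1.11 and not called (adjusted p = 0.22). *Bcat2* was lower in all ML-792 libraries as well, 7939, 5343 and 7790.5 against 10257, 13109 and 10775, and its difference was not called (-0.70 ± 0.41, adjusted p = 0.42), though it was with only the 6 libraries of the day in the fit and with no filter on low counts (adjusted p = 0.073 and 0.02). Of the genes not called, *Hibadh* had 12319, 7728 and 12248 against 8877, 5042 and 8919, with B the lowest in both arms (0.50 ± 0.22, adjusted p = 0.21). Within a library, *Bcat2* reads were 183.1 to 441.4 times those of *Bcat1* in ML-792 on day 7. Without replicate B, 4 genes were called on day 7, *Bcat1* and *Dbt* lower and *Hibadh* and *Mccc1* higher. Over the 4 days, 4 of the 10 genes were called at least once, against 24.9% of all genes.

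**Figure D4:**
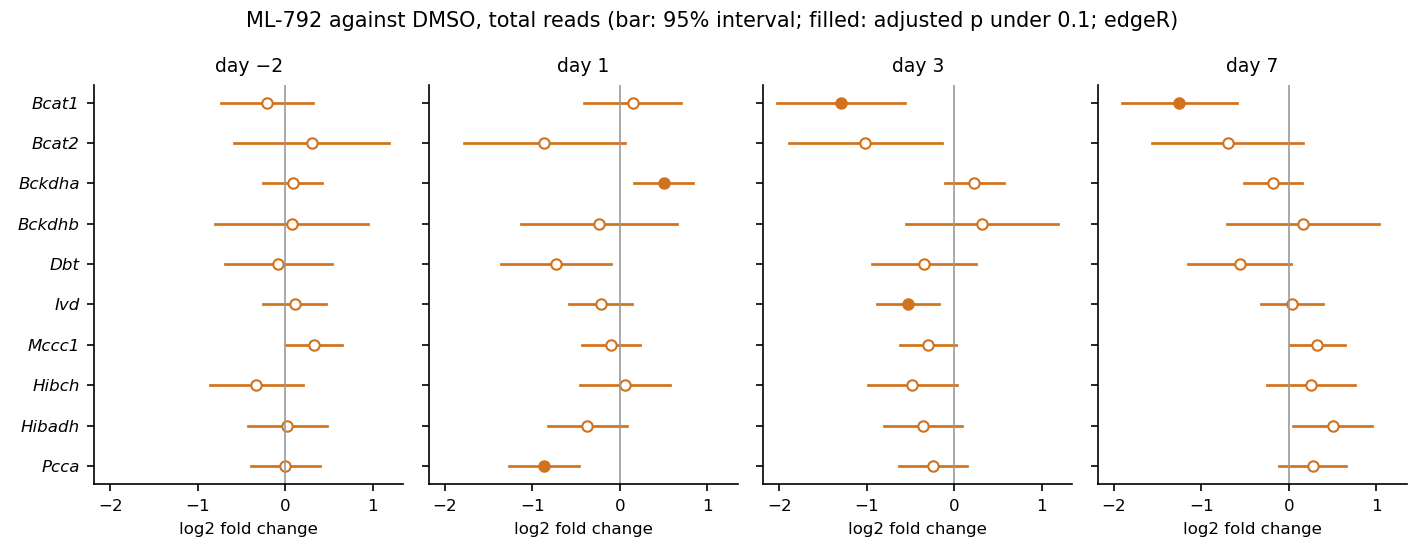
Fitted log2 difference of ML-792 against DMSO in total reads (horizontal axis, bar: 95% interval) for each of the 10 genes (vertical axis), with 1 panel per day and called differences as filled points. The filled points are *Pcca* and *Bckdha* on day 1, *Bcat1* and *Ivd* on day 3 and *Bcat1* on day 7.

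On days 3 and 7 the summed marker levels of the arms did not overlap, except for the adipocyte markers on day 3. No test was run on these sums, which are led by the most abundant genes and do not give the direction of each marker. The adipocyte markers summed to 248560 to 282445 in ML-792 on day 3, against 169188 to 258561 in DMSO, and to 514593 to 570979 on day 7, against 325887 to 364336. Those of pre-adipocytes or fibroblasts summed to 20240.2 to 26292.5 in ML-792 on day 3, against 11479.8 to 14195.9, and to 19366.7 to 25368.6 on day 7, against 12435.5 to 18895. Their part in the differences of the 10 genes was not tested.

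The interaction of day and treatment, an F-test over the 3 later days in the fit of all libraries, was called for 2 of the 10 genes, *Pcca* (adjusted p = 0.036) and *Bcat1* (adjusted p = 0.053), against 11.9% of all genes. The *Pcca* difference was -0.87 on day 1 and 0.27 on day 7 on the log2 scale, while that of *Bcat1* was 0.15 on day 1 and -1.29 on day 3. For the other 8 genes, a difference of the time course between the arms was not called. Without replicate A, neither gene was called (adjusted p = 0.62 and 0.33), nor without C (0.15 and 0.54).

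Labelled reads stand for RNA made in the last 45 min and were far fewer. A read with 1 T to C mismatch of another origin also counts as labelled, and this background was not measured here. *Ivd* was the only one of the 10 with more than 3 labelled reads in each of the 24 libraries (5 to 62), and *Bckdha* had 3 or fewer in 19 of 24. *Bcat2*, *Bckdhb*, *Ivd*, *Mccc1* and *Hibadh* passed the filter. Labelled counts were scaled by the total reads, and on this scale the median of all 6434 genes moved by -1.16 on day 1, -1.58 on day 3 and -1.45 on day 7 against day −2 on the log2 scale, in DMSO. The labelled share of all reads there was 3.17% ± 0.485 on day −2, 1.27% ± 0.0798 on day 1, 1.03% ± 0.115 on day 3 and 1.03% ± 0.0869 on day 7 (SD, n = 3).

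*Bcat2* and *Ivd* rose in labelled reads in DMSO, where the median of all genes was lower. On day 3, 2.04% of all genes were called higher and 30.6% lower (32.6% in all), and on day 7 2% higher and 27.4% lower (29.4% in all). *Bcat2* had 1, 0 and 6 labelled reads on day −2, 1, 1 and 7 on day 1, 13, 15 and 37 on day 3 and 46, 115 and 72 on day 7. Over day −2 the log2 fold change was 3.60 ± 0.73 (SE, adjusted p = 8.6e-05) on day 3 and 5.32 ± 0.72 (SE, adjusted p = 3.7e-08) on day 7, and the step from day 1 to day 3 was called as well (3.22 ± 0.71, adjusted p = 0.0016), against 1.55% of all genes, but not without A or without C (adjusted p = 0.02 and 0.015). The labelled reads of *Bcat2* on days −2 and 1 were at or under 3 in A and B, so the size of these folds is uncertain. Pooled over the DMSO libraries, 0.872%, 1.11%, 0.897% and 0.747% of *Bcat2* reads were labelled on days −2, 1, 3 and 7. Its labelled reads thus rose along with its total reads, and the part of background mismatches in this rise was not tested. *Ivd* had 13, 5 and 21 labelled reads on day −2, 17, 15 and 16 on day 1, 35, 30 and 50 on day 3 and 62, 37 and 35 on day 7, with log2 fold changes of 2.01 ± 0.53 (SE, adjusted p = 0.0018) on day 3 and 2.15 ± 0.53 (SE, adjusted p = 0.00094) on day 7. Without replicate A, *Ivd* was called at neither day (adjusted p = 0.026 and 0.061), and without C it was not called on day 3 (0.013).

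The other 3 genes tested were not called at any day. *Hibadh* had 26, 15 and 13 labelled reads on day −2 and 30, 18 and 32 on day 7 (0.96 ± 0.57, adjusted p = 0.16). For *Bckdhb* they were 13, 3 and 6 and 10, 26 and 24 (1.81 ± 0.73, adjusted p = 0.037). *Mccc1* went from 7, 9 and 9 on day −2 to 2, 0 and 1 on day 1 (-2.83 ± 1.20, adjusted p = 0.063) and 10, 7 and 6 on day 7 (0.24 ± 1.00, adjusted p = 0.85). On day 1 none of the 5 genes was called, against 18.4% of all genes, by edgeR (1 had an unadjusted p under 0.05) or by DESeq2. Scaled by the labelled reads in place of the total reads, the median of all genes moved by -0.39 on day 3 and -0.32 on day 7, and 4 of the 5 genes were called. The share of all genes called under this scaling is not given here, so that count cannot be set against it. *Hibadh* was then 2.31 on day 3 and 2.08 on day 7 and *Bckdhb* 2.98 on day 7 on the log2 scale.

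Of the genes not tested, *Bcat1* had 12, 4 and 5 labelled reads on day −2 in DMSO and 9, 17 and 20 in ML-792, and 0 or 1 in each library of days 3 and 7. *Bckdha* had 1, 0 and 0 on day −2 and 3, 3 and 6 on day 7 in DMSO, while its total reads on day 7 ran from 2486 to 3203. Between ML-792 and DMSO, edgeR called none of the 5 genes in labelled reads on any day, at 0% to 1.15% of all genes called. None had an unadjusted p under 0.05 and DESeq2 called 0. No interaction was called either (adjusted p from 0.93 to 0.98, with 0.28% of all genes called). The intervals of these differences were wide. On day 3 the 95% interval on the log2 scale ran from -1.79 to 0.19 for *Ivd* and from -2.28 to 0.15 for *Bcat2*, which leaves room for differences as large as those in total reads.

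**Figure D5:**
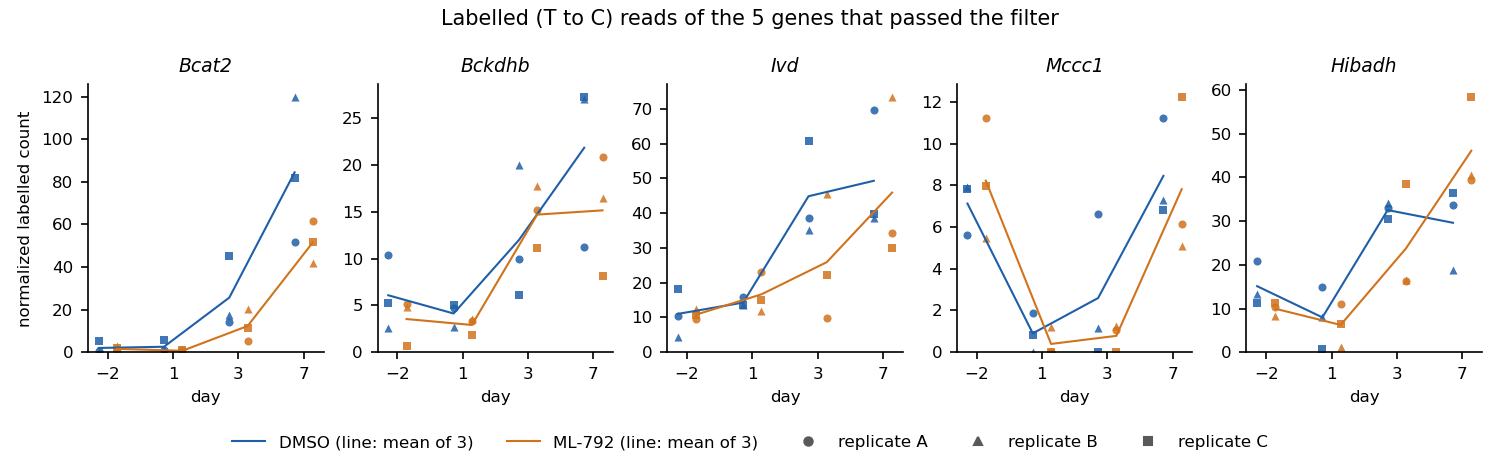
Labelled counts, scaled by the total reads (vertical axis), of the 5 genes that passed the filter in each of the 24 libraries against day, with DMSO and ML-792 in separate colours, the replicate letters as separate symbols and lines through the means of 3. In DMSO *Bcat2* goes from 0 to 5.22 on day −2 to 51.7 to 119.7 on day 7.

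The share of a gene's reads that were labelled was set beside the share over the whole library, as a description, since it also follows the T bases of each entry (24.9% to 33.7% of the bases) and its read depth. Pooled over the 3 DMSO libraries of day 7, 1.26% of *Ivd* reads were labelled (134 of 10619, exact 95% interval 1.06 to 1.49), where the libraries as a whole had 0.926% to 1.08%. *Bcat2* had 0.747% (233 of 31193, 0.654 to 0.849), *Hibadh* 0.389% (0.308 to 0.484), *Dbt* 0.184% (0.109 to 0.291) and *Bckdha* 0.141% (0.0731 to 0.247). On that day the intervals of 7 of the 10 genes lay below the range of the libraries, those of *Bcat2*, *Bckdha*, *Bckdhb*, *Dbt*, *Mccc1*, *Hibch* and *Hibadh*. The share of all genes that lay below it was not computed, so this count cannot be read as a trait of the pathway. The pooled interval of *Ivd* lay above the range of the libraries on days 1 and 3 in both arms and on day 7 in ML-792. On day 7 in ML-792 the *Ivd* shares of A, B and C were 0.795%, 2.08% and 0.733%, against 0.802% to 0.860% for the libraries. There A and C lay below the range and B alone above it. On day 3 in ML-792 they were 0.594%, 2.98% and 1.09%, against 0.919% to 0.992%, with A below the range. The reads carry no molecular identifiers that the sources name, and the intervals cover counting error only.

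Most of the other enzymes of the pathway rose as well. Of 13 other enzymes, 12 were called higher on day 7 than on day −2 in DMSO, against 19.3% of all genes. Their median log2 fold change was 2.07 over the 13, and *Acat1* was the 1 not called (0.59, adjusted p = 0.094). *Aldh6a1*, whose product takes valine carbon to propionyl-CoA, had 4.14 ± 0.25 (SE, adjusted p = 4.2e-09). *Echs1*, an enoyl-CoA hydratase shared with fatty acid oxidation, had 2.73 ± 0.36 (SE, adjusted p = 1.6e-05), and *Mccc2*, the partner subunit of *Mccc1*, had 2.44 ± 0.26 (SE, adjusted p = 1.7e-06). On day 3 11 of the 13 were higher, against 17.9% of all genes, and on day 1 1 was, against 7.61%.

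Regulators, cofactor enzymes and carriers moved less evenly, with 6 of 12 called higher on day 7, against 19.3% of all genes, and a median of 1.07. *Klf15*, a transcription factor of metabolic genes, had 1 to 2 reads per library on day −2 in DMSO and a level of 983 ± 186 (SD, n = 3) on day 7, at least 377-fold above a floor of 3 reads per library. *Ppm1k*, the phosphatase that switches the dehydrogenase complex on, had 2.19 ± 0.28 (SE, adjusted p = 1.1e-05), and *Mmab*, which acts on the cobalamin cofactor, had 1.31 ± 0.18 (SE, adjusted p = 2.3e-05). Of 16 genes of the tricarboxylic acid cycle, which takes up the carbon of the pathway, 14 were called higher on day 7, against the same 19.3%. The median was 2.09, and *Idh3a* (2.84) and *Suclg1* (2.50) were among them.

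Between the arms, 1, 2 and 2 of the 13 other enzymes and 3, 2 and 1 of the 12 regulators and carriers were called on days 1, 3 and 7, against 7.87%, 15.5% and 11.7% of all genes. None of the 16 genes of the tricarboxylic acid cycle was called by edgeR on days −2, 1, 3 or 7, where 0, 0, 0 and 1 of them had an unadjusted p under 0.05. The list genes named next were picked after their values were seen, and no values with a letter left out are given for them. For the 10 genes above, every call between the arms was lost with some letter left out. Among the other enzymes, *Aldh6a1* was lower on days 1 and 3 (-0.70 and -0.66 on the log2 scale), *Mccc2* was higher on days 3 and 7 (1.01 and 0.69), and *Acat1* was higher on day 7 (0.92). Among the regulators and carriers, *Btd* and *Mmab* were lower on day 1, and *Klf15* was higher at a level of 11.5 ± 6.41 against 3.83 ± 1.79 (SD, n = 3), close to the floor. *Mmab* (-0.69) and *Slc7a5*, a chain of the carrier that brings these amino acids into the cell (-1.90), were lower on day 3, and *Slc7a5* also on day 7 (-1.31). The interaction was called for *Mccc2*, *Klf15*, *Btd* and *Slc7a5*, 1 of 13 other enzymes and 3 of 12 regulators and carriers, against 11.9% of all genes. In labelled reads in DMSO on day 7, *Echs1* and *Aldh6a1* (of 10 tested), *Klf15* (of 7) and *Suclg1* (of 15) were among those higher and *Slc7a5* was lower. Of all genes, 2% were called higher and 27.4% lower in that comparison.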

How the data were processed

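QuantSeq 3′ mRNA libraries of 24 samples in 8 groups of treatment and day were grouped by sample title. The authors labelled RNA with 100 µM 4-thiouridine for 45 min, ran SlamDunk v0.4.3 on the mm10 genome and deposited raw counts of total reads and of labelled reads (at least 1 T to C conversion) on RefSeq 3′UTR entries, with no normalization. The submitters' processing notes name bcl2fastq 2.17.1.14. Both tables list 91830 entries of 26995 symbols, and entries of a gene can share reads. In each of them, 6 columns match no sample and were not used. The members and lists were chosen with earlier results of these data known. The genes named are the 10 members, the 3 genes of each pathway list with the largest fold change among called genes, and the 3 genes most correlated with *Bcat1*, *Bcat2* and *Ivd*. A gene that this rule names is not reported here. Genes of the lists called between ML-792 and DMSO, in the interaction or in labelled reads, and *Acat1*, were named after their values were seen.

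Counts were fitted with edgeR 4.0.16 (limma 3.58.1, R 4.3.3) by a robust quasi-likelihood model. The filter was filterByExpr (minimum count 10, minimum total 15), which kept 26563 entries of 13331 genes in total reads and 10589 entries of 6434 genes in labelled reads. TMM factors came from the total reads and also scaled the labelled reads. Adjusted p-values (Benjamini-Hochberg) ran over all entries kept. Days were compared in the 12 libraries of an arm at an adjusted p under 0.01, and ML-792 with DMSO, and the interaction of day and treatment, in all 24 at 0.1. The exact intervals of labelled shares and the floor of 3 reads cover counting error only, while intervals of fitted differences include the spread between replicates. Libraries of 13554718 to 27013352 total reads give each member over 10 reads per library, while their labelled reads are often under 10. The script was tested on simulated data before use. Alternatives were DESeq2 1.42.0, at least 10 reads or 1 read in place of the filter, 1 entry per gene, labelled reads scaled by their own totals, all 24 or only 6 libraries in the fit, the replicate letter as a block, other entries of a gene and each letter left out. Figures were drawn with matplotlib 3.10.9 and pandas 2.3.3 in Python 3.11.15.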

Additional observations from a re-analysis of the deposited data

Results flagged for a closer look

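The effect of ML-792 differed between days in total reads for *Pcca* and *Bcat1*, by the interaction of day and treatment in edgeR's quasi-likelihood test. For *Pcca* the adjusted p was 0.036, with a log2 difference of ML-792 against DMSO of -0.87 at day 1 (lower in 3 of 3 libraries), -0.25 at day 3 and 0.27 at day 7. For *Bcat1* the adjusted p was 0.053, with 0.15 at day 1, -1.29 at day 3 and -1.25 at day 7, lower in 3 of 3 libraries on both later days. Across alternatives other than leaving out a letter, the adjusted p of *Pcca* ran from 0.0046 to 0.056 and that of *Bcat1* from 0.0012 to 0.052. Without replicate A they were 0.62 and 0.33, and neither gene was called without replicate C either. The *Bcat1* levels of day 3 rest on 11 to 15 reads per library in ML-792 and 21 to 40 in DMSO.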

How the results depend on the processing

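On day 7 against day −2, the 10 genes kept their calls in DMSO and in ML-792 under DESeq2, the other filters, 1 entry per gene, all 24 libraries fitted together, the replicate block and each letter left out. On day 3 *Mccc1* lost its call without A in DMSO and, in ML-792, without A, without C, with no filter and with 1 entry per gene, and *Bckdhb* lost it in ML-792 without A. Over 1674 recomputed values of single genes, no call turned to the opposite direction, 45 lost their call and 69 gained one. The differences between the arms were less stable. The number of genes called between ML-792 and DMSO on at least 1 day was 4 and ran from 1 (without A or without C) to 8 (without B) with a letter left out. The interaction went from 2 genes to 0 (without A or without C) and up to 4 (without B). The shares of all genes called under these alternatives are not given here. In labelled reads in DMSO, 2 genes were called, 1 to 2 with a letter left out, and 4 when labelled reads were scaled by their own totals. The share of all genes called under that scaling is not given here either. Other 3′UTR entries of a gene gave the same call at day 7 against day −2 in 8 of 10 cases, the exceptions being entries of *Mccc1*.

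The replicate letters do not pair the libraries by the labels. After the group means were taken off, libraries with the same letter had a mean correlation of 0.191 (lowest -0.175, over 0.1 in 68 of 84 pairs) and those with different letters -0.0939. With the letter as a replicate block, 9 genes were called between the arms and 8 in the interaction, and no gene lost a call between the arms. The share of all genes called with the block is not given here, so these counts cannot be set against it. The calls added by the block were *Dbt* and *Hibadh* lower on day 1, *Bcat2*, *Dbt*, *Hibadh* and *Hibch* lower on day 3, and *Bcat2* and *Dbt* lower and *Hibadh* and *Mccc1* higher on day 7. Depth limits the labelled reads, in which *Bckdha* had 3 or fewer in 19 of 24 libraries, *Bcat1* and *Hibch* in 16 and *Pcca* in 14. The cause of these shifts was not tested.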
